A study of Mus musculus with 94 samples.

Results

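Adenosine outside the cell is made, sensed and removed by the products of a small group of genes, and 9 of them are described here: the ectonucleotidases Entpd1 and Nt5e, the adenosine receptors Adora1, Adora2a, Adora2b and Adora3, and the clearance genes Ada, Adk and Dpp4. They were taken by symbol from the 49080 genes of the deposited table. The rule used no measured value of these genes, and it was set with earlier results of these data known. Their positions in mm10 are Entpd1 at chr19:40612366-40741602 (+), Nt5e at chr9:88327197-88372092 (+), Adora1 at chr1:134199223-134235431 (-), Adora2a at chr10:75316877-75334784 (+), Adora2b at chr11:62248984-62266453 (+), Adora3 at chr3:105870858-105908926 (+), Ada at chr2:163726584-163750239 (-), Adk at chr14:21052574-21448569 (+) and Dpp4 at chr2:62330073-62412231 (-). All 9 are annotated as protein coding genes, and the values below are sums over their exons.

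Stressed and dying cells release ATP, which Entpd1 (CD39) strips to AMP and Nt5e (CD73) turns into adenosine. Adenosine then acts on G protein-coupled receptors, of which Adora2a and Adora2b raise cyclic AMP and Adora1 and Adora3 lower it, and signaling through Adora2a restrains T cells and natural killer cells. Ada deaminates adenosine to inosine, Adk phosphorylates it back to AMP inside the cell, and Dpp4 (CD26) is a surface peptidase that anchors the deaminase on human T cells.

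The tumors grew from 4T1 cells, a mouse mammary carcinoma line used as a model of triple negative breast cancer, injected at the right hind limb of female BALB/c mice at 8 weeks of age. Control tumors received neither treatment, 6 Gy tumors received x-rays to the leg in 1 dose, INDO tumors came from mice that drank 30 mg/L indomethacin (a cyclooxygenase inhibitor) throughout, and 6 Gy + INDO tumors received both. Total RNA was sequenced from 94 tumors on days 1, 3, 7, 15 and 23, counted from irradiation in the study's description: 4, 5, 5, 3 and 3 control tumors, 5 tumors on each day in the 6 Gy and INDO groups, and 5, 4, 5, 5 and 5 in the 6 Gy + INDO group. Tumors carry a number within their group and no animal is named, each day has its own tumors, and the p-values measure only the spread between these tumors.

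Total counts ran from 29.4 to 96.5 M in control tumors, 34.8 to 109.3 M after 6 Gy, 24.004 to 89.0 M with INDO and 20.996 to 74.9 M in the combined group, and their medians were 73.4, 66.6, 41.0 and 37.5 M, so depth moved with indomethacin. Summed CPM (counts per M library counts, scaled with TMM factors) of 7 tumor epithelium markers lay between 1507 and 4356 in every tumor. In 11 tumors, 8 of them 6 Gy + INDO, reads on olfactory and vomeronasal receptor genes reached 338 to 1648 CPM against 41.3 to 147 CPM in the other 83. INDO tumor 3 of day 3 stood apart, with 308 CPM on T cell markers and 502 CPM on B cell markers, against 54.9 to 67.5 and 1.80 to 5.68 CPM in the other INDO tumors of that day. Where a called treatment difference of the 9 genes was lost without these tumors, that is said beside it or with the results that varied between days. Calls of other genes were not refitted without them. In bulk tumors, fewer cells of a type and less RNA per cell cannot be told apart.

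The levels of the 9 genes spanned a wide range when set per length of exon. Nt5e stood far above the others, with a median of 52.0 CPM per kb over the 94 tumors and a range of 26.1 to 102. Entpd1, Ada and Adk followed with medians of 5.55, 4.75 and 4.09 CPM per kb, and their ranges overlapped widely. The medians of the receptors were 1.25 CPM per kb for Adora2b, 0.629 for Adora3, 0.208 for Adora2a and 0.0270 for Adora1, and Dpp4, at 0.414, lay between Adora3 and Adora2a. Ranges of neighbors in this order overlapped everywhere but between Nt5e and Entpd1, whose highest tumor reached 12.3 CPM per kb. Adora1 was at the edge of detection: its median count was 8.45 a tumor, and it was listed at 0 in 2 tumors, where 3 counts would have been 0.0780 and 0.0933 CPM.

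**Figure D1:**
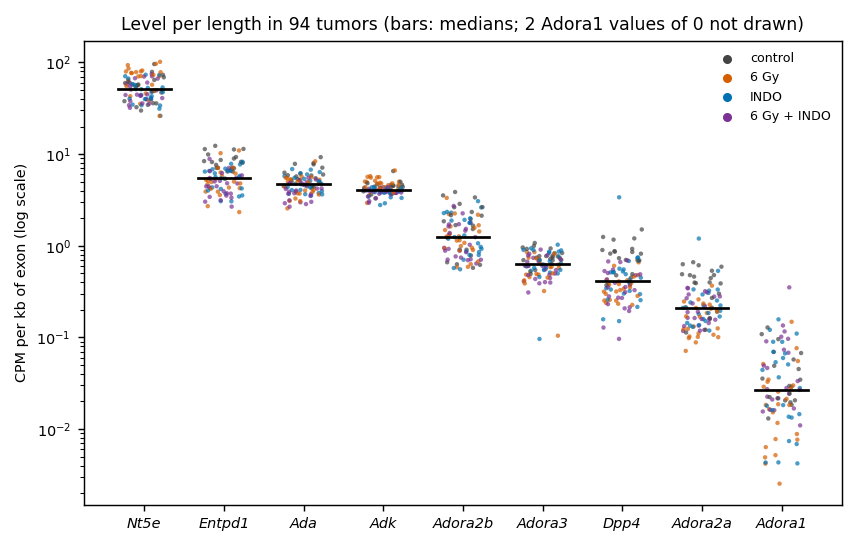
Level of each of the 9 genes per kb of exon (CPM per kb, log axis) in 94 tumors, 1 point a tumor colored by treatment, with black bars at the medians. Nt5e lies between 26.1 and 102 CPM per kb and above every value of the other genes, and Adora1 has the lowest median.

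All 9 genes passed the filter on low counts in every fit. Averaged over the 5 days, more of these genes were lower than higher with each treatment. With 6 Gy, Nt5e rose and Entpd1, Adora2a, Adora3, Ada and Dpp4 fell, which is 1 and 5 of the 9 genes, where 9.19% of the 29373 genes tested rose and 10.6% fell (edgeR quasi-likelihood test, adjusted p under 0.05). With INDO, Entpd1, Adora2a, Ada, Adk and Dpp4 fell and none rose, against backgrounds of 17.4% and 16.8%. With 6 Gy + INDO, Entpd1, Adora2a, Adora2b, Adora3, Ada, Adk and Dpp4 fell and none rose, against backgrounds of 23.2% lower and 29.6% higher. The median log2 fold change of the 9 genes was -0.46, -0.24 and -0.49 in these comparisons, beside 0.03, 0.07 and 0.19 over all genes tested. The comparisons share the control tumors.

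**Figure D2:**
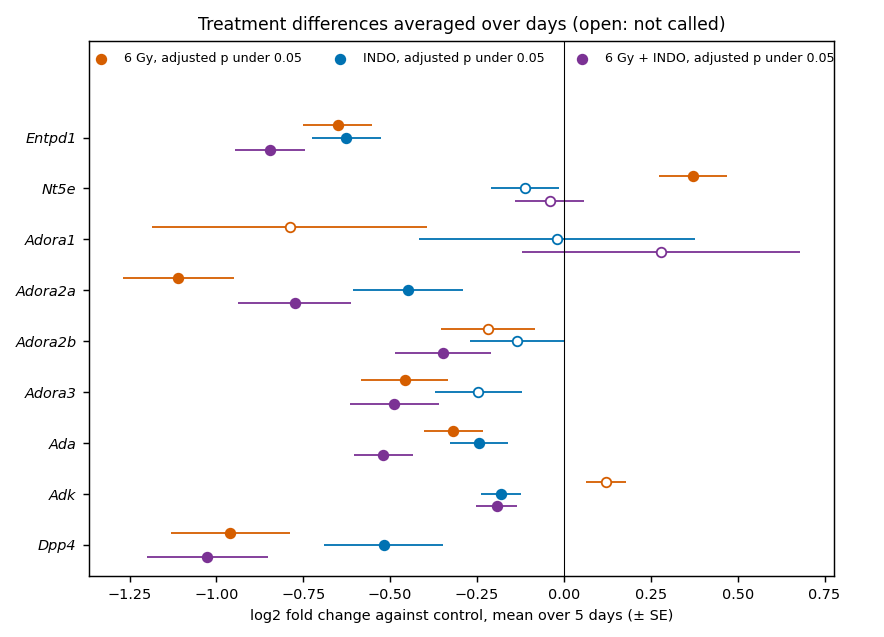
Log2 fold change of each gene against control, averaged over 5 days with its SE, for 6 Gy, INDO and 6 Gy + INDO (filled: adjusted p under 0.05, edgeR). Entpd1, Adora2a, Ada and Dpp4 are filled and below 0 for all 3 treatments, and Nt5e is filled and above 0 for 6 Gy only.

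The scaling of the libraries matters for the small differences in this set. Scaling to 14 housekeeping genes in place of TMM moved the median of all genes by 0.18 (log2) for 6 Gy + INDO against control, 0.21 for 6 Gy + INDO against 6 Gy, 0.10 against INDO and 0.13 for the interaction, and by 0.10 or less in the other comparisons averaged over days. Within days the shift passed that size for 6 Gy on day 1 (-0.14), INDO on day 7 (0.15) and 6 Gy + INDO on days 3, 7 and 23 (0.28, 0.24 and 0.17).

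Nt5e makes the adenosine, and it was the gene of the set that rose after irradiation. On day 1 the control tumors had 257, 309, 325 and 280 CPM and the 6 Gy tumors 368, 556, 659, 486 and 304 CPM. All but 1 of the irradiated tumors lay above the control range, and the lowest lay inside it. The difference was 0.70 (log2, SE 0.19, adjusted p = 0.0157), beside a background of 6.15% of 22276 genes higher on that day. It was not called without control tumor 1 (0.64, adjusted p = 0.0568) or with only the 2 groups compared. On day 3 the control tumors ran from 308 to 679 CPM around 493.01 and the 6 Gy tumors from 610 to 874 CPM around 685, and on day 7 the ranges were 464 to 826 and 674 to 831 CPM. These ranges overlapped, and the differences of 0.49 (SE 0.20) and 0.30 (SE 0.17) were not called. With DESeq2 the day 3 difference was called (adjusted p = 0.0421).

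Averaged over days, Nt5e was 0.37 higher after 6 Gy than in control (log2, SE 0.10, adjusted p = 0.00339). Without day 1 the value was 0.27 with an adjusted p of 0.107, and without the tumors numbered 1 it was 0.26 with an adjusted p of 0.114. INDO and 6 Gy + INDO gave -0.11 (SE 0.10) and -0.04 (SE 0.10) against control, and neither was called. On day 1 the 6 Gy + INDO tumors had 340 to 514 CPM, all above the control tumors of that day. Their difference of 0.42 (SE 0.19, adjusted p = 0.111) was not called, except with only the 2 groups compared (adjusted p = 0.033). The 6 Gy + INDO difference was below 0 on 3 of the 5 days. Between irradiated groups Nt5e was lower with INDO than without it, at -0.41 (log2, SE 0.09, adjusted p = 0.000202), and this call held under every alternative that kept the adjusted p. The group means for 6 Gy and 6 Gy + INDO were 475 and 389.6 CPM on day 1, 727 and 552 CPM on day 3, 725 and 505 CPM on day 7, 532 and 397 CPM on day 15, and 444 and 329 CPM on day 23. The combined group had the lower mean on each of the 5 days.

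In every group the days also differed for Nt5e. The control means were 293 ± 30.5 CPM (SD, n = 4) on day 1, 589.8 ± 140.2 CPM (n = 5) on day 7 and 440.1 ± 48.2 CPM (n = 3) on day 23, and the 5 control days differed (adjusted p = 0.00336). The days differed within 6 Gy, INDO and 6 Gy + INDO as well (adjusted p = 0.00467, 0.0161 and 0.0146), with the highest mean on day 3 in each. These calls were lost without the tumors numbered 4 in control (adjusted p = 0.104), 2 or 4 in 6 Gy, 5 in INDO (adjusted p = 0.138) and 1, 3 or 4 in 6 Gy + INDO, and in the last group also without the tumors rich in receptor reads (adjusted p = 0.152). Across days, the difference between a treatment and control was not called to vary for this gene (adjusted p = 0.511, 0.683 and 0.174).

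Entpd1, which takes ATP and ADP to AMP and so supplies Nt5e, went the other way. On day 1 the control tumors had 48.1, 36.0, 46.8 and 42.6 CPM, the 6 Gy tumors 23.8, 15.1, 27.6, 21.7 and 19.97 CPM, the INDO tumors 20.6, 17.1, 17.1, 24.2 and 19.2 CPM, and the 6 Gy + INDO tumors 16.9, 20.7, 17.5, 19.7 and 19.05 CPM. Every treated tumor lay below every control tumor. The log2 differences were -0.99 (SE 0.14), -1.11 (SE 0.14) and -1.20 (SE 0.14), with adjusted p = 0.000118, 4.57e-05 and 1.26e-05. On that day 9.43%, 8.89% and 13.3% of all genes tested fell.

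On day 7 the groups were again apart, at 49.9 to 68.7 CPM in control, 26.7 to 34.3 CPM with 6 Gy, 31.4 to 43.8 CPM with INDO and 20.8 to 36.4 CPM with 6 Gy + INDO. The differences were -1.03 (SE 0.14), -0.67 (SE 0.14) and -1.13 (SE 0.14), all called, beside 10.3%, 11.7% and 21.2% of all genes tested lower. On day 3 Entpd1 fell with 6 Gy + INDO (-1.01, SE 0.29, adjusted p = 0.0211) but this was not called with housekeeping scaling (-0.73, adjusted p = 0.063), without the tumors rich in receptor reads (-1.21, adjusted p = 0.357, with 1 tumor of that group left), or without control tumor 2 or 3 or 6 Gy + INDO tumor 1. The 6 Gy difference of day 3 was -0.50 (SE 0.26), where tumor 1 of the 6 Gy group had 61.1 CPM and the other 4 had 21.8 to 26.1 CPM. Without that tumor it was -0.90 with an adjusted p of 0.0116.

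Of the 44 treated tumors of days 1 to 7, 42 lay below all control tumors of their day, and of the 30 treated tumors of days 15 and 23, 20 did. The 2 counts are not alike, since control had 4 or 5 tumors on the early days and 3 on the late days. Such counts were not made over all genes. Averaged over days, Entpd1 was lower, at -0.65 (SE 0.10, adjusted p = 4.68e-07) with 6 Gy, -0.63 (SE 0.10, adjusted p = 1.62e-06) with INDO and -0.85 (SE 0.10, adjusted p = 3.52e-10) with 6 Gy + INDO. These calls held under every alternative that kept the adjusted p. Each treated group had its lowest mean on day 1, at 21.7, 19.6 and 18.8 CPM, and the days differed within each of them (adjusted p = 0.0393, 0.00196 and 0.00295). The first of these was lost with RLE factors, with no filter and without the tumors numbered 2, 3, 4 or 5 (adjusted p up to 0.369), and the others without the tumors numbered 2 (adjusted p = 0.0537) and 1 (adjusted p = 0.108). The control days were not called to differ (adjusted p = 0.125).

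Entpd1 has a start inside the annotated gene whose upstream sequence is clear of annotated untranslated sequence, and it is shown because this gene fell in all 3 treatments. The 250 bases before it lie at chr19:40659520-40659769 (+, GRCm38.p6, RefSeq start), with 47.2% G and C against a median of 52.4% over 32851 promoters. Capitals mark 1 match to TGACG, a cyclic AMP response core found on either strand in 17.8% of all promoters, and 1 match to CCAAT, found in 33.8%.
Entpd1 internal start: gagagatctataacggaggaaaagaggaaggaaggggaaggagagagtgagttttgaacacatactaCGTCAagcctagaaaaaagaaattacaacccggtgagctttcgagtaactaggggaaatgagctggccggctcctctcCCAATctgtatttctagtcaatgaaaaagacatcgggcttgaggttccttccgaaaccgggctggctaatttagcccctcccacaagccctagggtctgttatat

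Among the called differences of the receptors those of Adora2a were the largest, and it is the cyclic AMP-raising receptor best known on T cells. On day 1 the control tumors had 1.88, 1.36, 1.498 and 1.41 CPM, the 6 Gy tumors 0.380, 0.218, 0.314, 0.270 and 0.311 CPM, the INDO tumors 0.687, 0.551, 0.364, 0.412 and 0.585 CPM, and the 6 Gy + INDO tumors 0.360, 0.439, 0.412, 0.369 and 0.501 CPM. No treated tumor reached the control range. The log2 differences were -2.34 (SE 0.22, adjusted p = 1.61e-06), -1.53 (SE 0.21, adjusted p = 9.91e-05) and -1.87 (SE 0.21, adjusted p = 8.56e-06).

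By day 7 the control tumors had 1.93, 1.63, 1.81, 0.647 and 2.03 CPM, so tumor 4 stood below the others, while the 6 Gy tumors had 0.328, 0.520, 0.515, 0.308 and 0.403 CPM. Adora2a was lower with 6 Gy (-1.95, SE 0.33, adjusted p = 0.000498), INDO (-1.01, SE 0.32, adjusted p = 0.0299) and 6 Gy + INDO (-1.17, SE 0.32, adjusted p = 0.00769). The INDO call was lost on leaving out any of 6 tumors (control 2, 3 or 5 and INDO 2, 3 or 5), with adjusted p between 0.0506 and 0.077. It was also lost with housekeeping scaling. The 6 Gy + INDO call was lost without the tumors rich in receptor reads (adjusted p = 0.0607).

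On day 3 the value of Adora2a with INDO rested on 1 tumor. The INDO tumors had 0.774, 0.650, 3.67, 0.598 and 0.487 CPM, and the control tumors 1.19 to 1.47 CPM. With tumor 3, the tumor with the high lymphocyte markers, the INDO difference was -0.09 (SE 0.44). Without it the difference was -1.05 (SE 0.25, adjusted p = 0.0189), and the other 4 tumors lay below all control tumors. The 6 Gy call of that day (-1.49, SE 0.45, adjusted p = 0.0483, background 4.10% lower) was lost on leaving out any 1 of the 10 tumors (adjusted p 0.0548 to 0.116), although the value stayed between -1.37 and -1.65, and without the tumors rich in receptor reads (-1.49, adjusted p = 0.0782).

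On day 15 the control tumors were the lowest of all control days, at 0.371, 0.495 and 0.346 CPM. The 6 Gy tumors then had 0.796, 0.698, 0.339, 0.755 and 0.717 CPM and the 6 Gy + INDO tumors 1.06, 0.578, 0.854, 0.583 and 0.901 CPM. The differences were 0.68 (SE 0.39), 1.13 (SE 0.40) with INDO and 0.95 (SE 0.40), and none was called. The control days differed for Adora2a (adjusted p = 0.00164, and 0.0804 without the tumors numbered 1), with a mean of 1.61 ± 0.557 CPM (SD, n = 5) on day 7 and 0.404 ± 0.0796 CPM (n = 3) on day 15. The difference from control varied between days for each treatment, with adjusted p = 0.00085, 0.00688 and 0.000502 for irradiation, indomethacin and both, beside backgrounds of 3.82%, 2.66% and 33.6% of genes called.

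Some marker sums were lower on day 15 in these control tumors and others were not. The summed level of 10 T cell markers was 94.1 to 130 CPM on day 1, 108 to 149 CPM on day 7 and 61.7 to 81.9 CPM on day 15 in control, and that of 8 endothelium markers was 284 to 407, 320 to 535 and 151 to 180 CPM. The median of control neutrophil markers was 265, 849 and 884 CPM on these days, that of dendritic cell markers 166, 302 and 313 CPM and that of natural killer cell markers 21.3, 34.7 and 28.001 CPM. Thy1, which other cells express too, made up a median of 76.7% of the T cell sum. The other 9 T cell markers summed to 17.0 to 35.8, 15.9 to 50.7 and 16.1 to 23.4 CPM in control on these days, and these ranges overlapped. In 6 Gy tumors the T cell sum with Thy1 was 55.3 to 83.2, 49.7 to 56.8 and 23.7 to 79.4 CPM on these days. Averaged over days, 10 of 10 T cell markers fell with 6 Gy, 1 of 10 with INDO (INDO tumor 3 of day 3 kept) and 9 of 10 with 6 Gy + INDO. For endothelium, 7, 8 and 8 of 8 markers fell, where 10.6%, 17.4% and 23.2% of all genes did. The part of these cells in the Adora2a result was not tested.

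**Figure D3:**
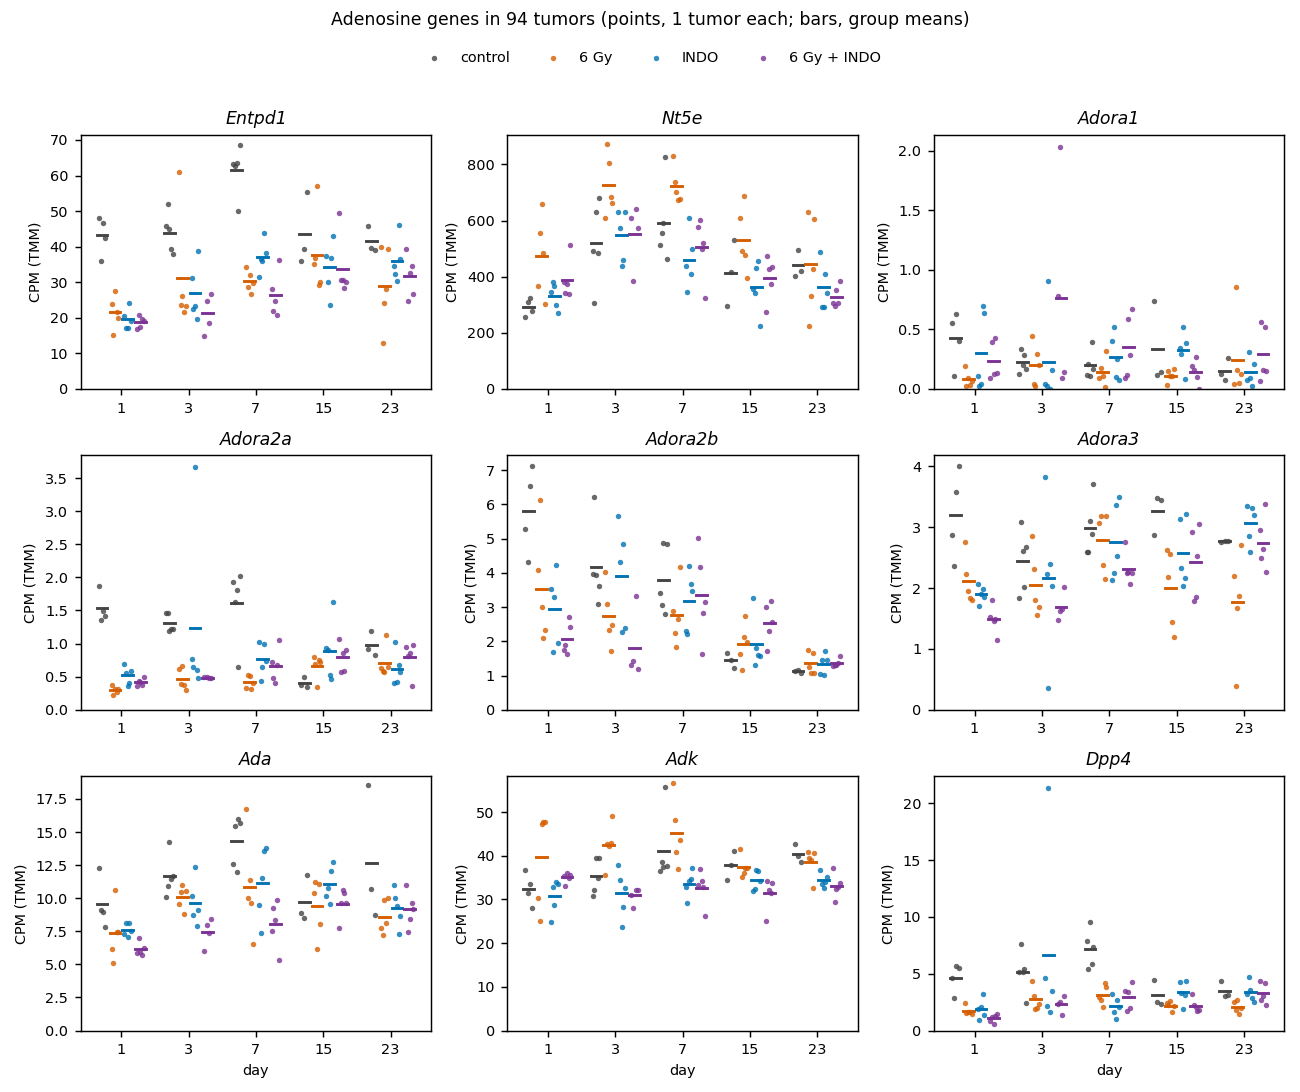
CPM of each of the 9 genes by day (1, 3, 7, 15 and 23) in 94 tumors, 1 point a tumor, with short bars at group means; each panel has its own linear axis from 0. Control tumors lie above treated tumors for Entpd1 and Adora2a on days 1 and 7, except control tumor 4 of day 7 for Adora2a (0.647 CPM), control tumors of days 15 and 23 have the lowest Adora2b of the control days, and INDO tumor 3 of day 3 stands out for Adora2a (3.67 CPM) and Dpp4 (21.4 CPM).

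Averaged over days, Adora2a was lower, at -1.11 with 6 Gy (SE 0.16, adjusted p = 9.44e-08), -0.45 with INDO (SE 0.16, adjusted p = 0.022) and -0.77 with 6 Gy + INDO (SE 0.16, adjusted p = 5.57e-05). Without INDO tumor 3 of day 3 the INDO value was -0.64 with an adjusted p of 0.000132. The INDO call did not hold without day 1 (-0.19, adjusted p = 0.513), without day 7 (-0.26, adjusted p = 0.339), without day 23 (-0.41, adjusted p = 0.0633) or with housekeeping scaling (-0.35, adjusted p = 0.108). The interaction of 6 Gy and INDO was 0.78 (SE 0.22, adjusted p = 0.0168, background 5.65% higher), so the difference with both was smaller than the sum of the separate differences on the log2 scale. It was not called without day 1 (0.49, adjusted p = 0.335), day 7 (0.51, adjusted p = 0.277) or day 23 (0.77, adjusted p = 0.0604), nor without the tumors numbered 1, 2 or 5 (adjusted p 0.0615 to 0.163).

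Adora2b, the low-affinity receptor that also raises cyclic AMP, changed most with time in control tumors. The control tumors had 5.29, 4.31, 6.54 and 7.12 CPM on day 1, 3.97, 6.21, 3.93, 3.10 and 3.61 CPM on day 3, 1.67, 1.45 and 1.22 CPM on day 15, and 1.14, 1.16 and 1.06 CPM on day 23. No control tumor of days 15 and 23 reached any control tumor of days 1 to 7. Day 23 was below day 1 by -2.37 in control (log2, SE 0.37, adjusted p = 7.79e-07), and the 5 control days differed (adjusted p = 2.18e-07, where 30.2% of genes were called). The same contrast was -1.37 (SE 0.29, adjusted p = 0.000229) with 6 Gy, -1.14 (SE 0.29, adjusted p = 0.00216) with INDO and -0.60 (SE 0.29, adjusted p = 0.0985) with 6 Gy + INDO. In this last group Dpp4 rose, at 1.62 (SE 0.37, adjusted p = 0.000876), and Entpd1, Adora2a and Adora3 also moved further than Adora2b. The 5 days of Dpp4 differed there (adjusted p = 0.00454, background 43.6% called). Without the tumors numbered 1 that call was lost (adjusted p = 0.088).

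Differences of Adora2b from control were called early and not late. On day 1 Adora2b was lower with INDO (-0.95, SE 0.31, adjusted p = 0.0463) and 6 Gy + INDO (-1.48, SE 0.31, adjusted p = 0.00209), and the 6 Gy + INDO tumors had 1.75, 1.89, 1.63, 2.70 and 2.42 CPM. The first of these calls was lost on leaving out any of 7 tumors of the 9 compared (adjusted p 0.0573 to 0.118), and without the tumors rich in receptor reads (-0.84, adjusted p = 0.096). It was lost with housekeeping scaling as well. On days 15 and 23, 21 of the 30 treated tumors lay above all control tumors of their day and 3 below, and no difference was called. All treated tumors of a late day were set against the same 3 control tumors. Such counts were not made over all genes. The difference from control varied between days with 6 Gy + INDO (adjusted p = 0.000274), and the treatment-by-day tests for 6 Gy and INDO gave adjusted p = 0.183 and 0.23.

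The 6 Gy + INDO values of day 3 were 1.31, 1.41, 3.32 and 1.18 CPM. The lower level there (-1.16, SE 0.35, adjusted p = 0.029) was -0.30 without the tumors rich in receptor reads, which left 1 tumor of the group. The call was also lost with housekeeping scaling and with only the 2 groups compared. Leaving out control tumor 2 or 3 or 6 Gy + INDO tumor 1, 2 or 4 ended it too (adjusted p up to 0.103). The mean over days for 6 Gy + INDO (-0.35, SE 0.14, adjusted p = 0.0279) was not called under 8 of 13 alternatives. Among them were the fits without the tumors rich in receptor reads and without day 1 (-0.09, adjusted p = 0.693).

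Adora3 couples to inhibition of cyclic AMP and is known from mast cells and macrophages. Control tumors of day 1 had 2.88, 2.37, 3.58 and 4.00 CPM, INDO tumors 2.06, 1.70, 1.90, 1.99 and 1.86 CPM, and 6 Gy + INDO tumors 1.53, 1.80, 1.45, 1.496 and 1.15 CPM. Neither treated group overlapped control. It was lower with INDO (-0.72, SE 0.18, adjusted p = 0.0128), which was lost without control tumor 4 (adjusted p = 0.0559), and with 6 Gy + INDO (-1.10, SE 0.18, adjusted p = 0.000296). With 6 Gy the difference was -0.59 (SE 0.18, adjusted p = 0.0333), a call lost with the replicate block (adjusted p = 0.0832), with no filter, in the fit of all tumors, with only the 2 groups compared, and on leaving out control tumor 3 or 4 or 6 Gy tumor 3, 4 or 5.

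Averaged over days, Adora3 was lower, at -0.46 with 6 Gy (SE 0.13, adjusted p = 0.00469) and -0.49 with 6 Gy + INDO (SE 0.13, adjusted p = 0.00096), and INDO gave -0.25 (SE 0.13, adjusted p = 0.123). The 6 Gy value was -0.40 with an adjusted p of 0.0638 without the tumors numbered 4. Tmigd3 shares 779 exon bases with Adora3 on the same strand, so reads there may count for either. Tmigd3 had a median of 0.0936 CPM beside 2.35 CPM for Adora3.

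Adora1, the other inhibitory receptor, had few counts. Its 94 values had a median of 0.156 CPM and a highest value of 2.03 CPM, in 6 Gy + INDO tumor 2 of day 3. Its differences from control in the average over days were not called, at -0.79 (SE 0.40, unadjusted p = 0.0497, adjusted p = 0.161), -0.02 (SE 0.40) and 0.28 (SE 0.40) for irradiation, indomethacin and both, and the first was called without day 23 (-1.12, adjusted p = 0.0491). On day 1 the 6 Gy value was -2.35 (SE 0.82, adjusted p = 0.0596), which was called with DESeq2 (adjusted p = 0.0289) and with only the 2 groups compared (adjusted p = 0.0347), and the groups overlapped. It was higher with 6 Gy + INDO than with 6 Gy (1.07, SE 0.38, adjusted p = 0.0181, background 25.9% higher), but without the tumors rich in receptor reads the value was 0.07 with an adjusted p of 0.965. Mybph, a muscle gene, shares 1162 exon bases with Adora1 on the opposite strand, and its level was 8.63, 4.03 and 4.83 CPM in the 3 tumors with the highest Adora1, beside a median of 0.410 CPM. The libraries were made with a stranded kit, but no source used here says whether the counting used strand, so the reads of the 2 genes may not be separated.

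**Figure D4:**
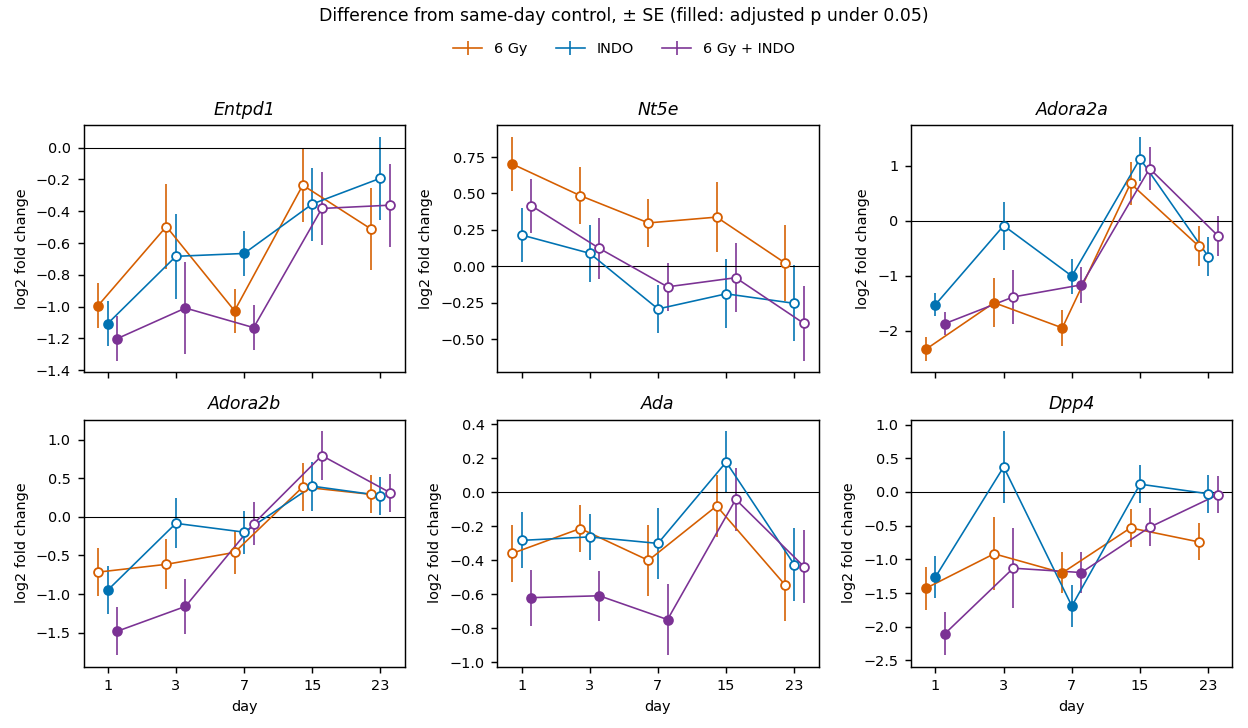
Log2 fold change against control tumors of the same day, with SE, for 6 genes on days 1, 3, 7, 15 and 23 and 3 treatments (filled: adjusted p under 0.05, edgeR). Adora2a is below 0 on days 1 and 7 with filled points for every treatment and above 0 with open points on day 15, and no point is filled on days 15 and 23.

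Dpp4, the peptidase known as CD26, was lower in treated tumors early on. Day 1 values were 4.63, 2.83, 5.68 and 5.52 CPM in control, 2.43, 1.505, 1.62, 1.59 and 1.47 CPM with 6 Gy, 1.90, 0.952, 2.03, 3.24 and 1.36 CPM with INDO, and 0.809, 1.23, 0.609, 1.31 and 1.46 CPM with 6 Gy + INDO. Only the INDO group overlapped control, through 1 tumor. The differences were -1.43 (SE 0.32, adjusted p = 0.00484), -1.26 (SE 0.32, adjusted p = 0.0117) and -2.10 (SE 0.32, adjusted p = 0.000144), and no left-out tumor ended any of these calls.

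On day 7 the control tumors had 7.88, 5.40, 9.52, 5.85 and 7.37 CPM and the INDO tumors 3.26, 1.63, 0.997, 2.70 and 2.10 CPM. No treated tumor of that day reached the control range, and the differences were -1.20 (SE 0.30, adjusted p = 0.0104) with 6 Gy, -1.69 (SE 0.31, adjusted p = 0.0018) with INDO and -1.20 (SE 0.31, adjusted p = 0.00472) with 6 Gy + INDO. On day 3 the INDO tumors had 4.66, 2.17, 21.4, 1.61 and 3.49 CPM, where tumor 3 is the one with the high lymphocyte markers, and the difference from control was 0.37 (SE 0.54) with it and -0.76 (SE 0.36, adjusted p = 0.197) without it.

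Averaged over days, Dpp4 was lower, at -0.96 with 6 Gy (SE 0.17, adjusted p = 1.18e-05), -0.52 with INDO (SE 0.17, adjusted p = 0.0138) and -1.03 with 6 Gy + INDO (SE 0.17, adjusted p = 1.58e-06). Without INDO tumor 3 of day 3 the INDO value was -0.75 (adjusted p = 3.37e-05), and without day 7 it was -0.18 (adjusted p = 0.582). It was also not called with housekeeping scaling, without day 1, without the tumors numbered 1 or 2, or without the tumors rich in receptor reads (-0.41, adjusted p = 0.0606). Dpp4 was also lower with 6 Gy + INDO than with INDO (-0.51, SE 0.16, adjusted p = 0.0349, background 3.54%), which was lost under 6 of 13 alternatives, among them without that tumor (-0.28, adjusted p = 0.177), without the tumors rich in receptor reads (-0.74, adjusted p = 0.104) and with housekeeping scaling (-0.40, adjusted p = 0.118), and on leaving out 4 of the 5 replicate numbers. None of the 9 genes was higher in that comparison, where 7.21% of all genes were. The antisense gene Gm13561 shares 232 exon bases with Dpp4 and had a median of 0.0256 CPM beside 2.62 CPM.

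The 250 bases before the Dpp4 start are shown because the gene fell in all 3 treatments. They lie at chr2:62412232-62412481 (-, GRCm38.p6, RefSeq) and hold 43.6% G and C. Capitals mark 1 match to TATAAA, present on either strand in 12.4% of all promoters, and 1 match to the interferon response motif (GAAA, any 2 bases, and GAAA again), present in 2.98% and read here on the opposite strand. The other motifs searched had no match in these letters: the hypoxia response cores ACGTG or GCGTG, the cyclic AMP response core TGACG, the GC box GGGCGG, the CCAAT box and the AP-1 site TGANTCA.
Dpp4 start: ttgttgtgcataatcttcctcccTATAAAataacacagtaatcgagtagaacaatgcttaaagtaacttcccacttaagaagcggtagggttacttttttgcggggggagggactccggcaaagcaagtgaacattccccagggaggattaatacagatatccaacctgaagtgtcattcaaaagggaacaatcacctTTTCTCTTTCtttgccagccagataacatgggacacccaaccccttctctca

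Ada removes adenosine by deamination, and its differences were smaller and clearest with 6 Gy + INDO. On day 7 the control tumors had 12.6, 15.5, 12.0, 15.99 and 15.7 CPM and the 6 Gy + INDO tumors 7.49, 9.27, 8.33, 9.87 and 5.34 CPM, and the 2 groups did not overlap. Ada was lower with 6 Gy + INDO on day 1 (-0.62, SE 0.17, adjusted p = 0.0106), day 3 (-0.61, SE 0.15, adjusted p = 0.00965) and day 7 (-0.75, SE 0.21, adjusted p = 0.00815). The day 1 call was lost without control tumor 1 (adjusted p = 0.0524), the day 3 call with housekeeping scaling (-0.32, adjusted p = 0.134), and the calls of days 3 and 7 without the tumors rich in receptor reads (-0.64, adjusted p = 0.304, and -0.66, adjusted p = 0.109).

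Averaged over days, Ada was lower, at -0.32 with 6 Gy (SE 0.08, adjusted p = 0.00336), -0.24 with INDO (SE 0.08, adjusted p = 0.0186) and -0.52 with 6 Gy + INDO (SE 0.09, adjusted p = 7.88e-07). It was also lower with both treatments than with INDO (-0.27, SE 0.08, adjusted p = 0.0195) and than with 6 Gy (-0.20, SE 0.08, adjusted p = 0.0332, background 19.8% lower), but the difference from 6 Gy turned to 0.01 with housekeeping scaling. The call against INDO was lost under 5 of 13 alternatives, among them without the tumors rich in receptor reads (-0.26, adjusted p = 0.258) and with housekeeping scaling (-0.18, adjusted p = 0.0701), and the call against 6 Gy under 9 of 13, among them without those tumors (-0.17, adjusted p = 0.254). The INDO call held under 7 of 13 alternatives and failed with housekeeping scaling (-0.15, adjusted p = 0.0946).

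The Ada promoter is shown for contrast with that of Dpp4. It lies at chr2:163750240-163750489 (-, GRCm38.p6, RefSeq), holds 67.2% G and C, and has 1 match to the GC box letters GGGCGG, found in 32.7% of all promoters on either strand, and 1 match to CCAAT, both in capitals. TATAAA and the interferon response motif had no match in these letters.
Ada start: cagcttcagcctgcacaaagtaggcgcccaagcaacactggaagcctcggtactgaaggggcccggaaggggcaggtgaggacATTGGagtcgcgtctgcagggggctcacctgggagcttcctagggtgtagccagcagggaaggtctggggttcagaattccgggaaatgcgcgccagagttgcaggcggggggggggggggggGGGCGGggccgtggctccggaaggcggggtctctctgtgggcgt

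Adk, the kinase that returns adenosine to AMP, varied least between tumors, from 23.7 to 56.6 CPM around a median of 34.9. Averaged over days it was lower with INDO (-0.18, SE 0.06, adjusted p = 0.00935) and with 6 Gy + INDO (-0.19, SE 0.06, adjusted p = 0.00339), and 6 Gy gave 0.12 (SE 0.06, adjusted p = 0.131). With housekeeping scaling the first 2 values were -0.10 (adjusted p = 0.0963) and -0.01 (adjusted p = 1). Between irradiated groups Adk was lower with INDO than without it (-0.32, SE 0.05, adjusted p = 2.89e-06), a call that held under every alternative that kept the adjusted p. On day 3 the 6 Gy tumors had 35.6, 42.7, 42.3, 42.8 and 49.1 CPM and the 6 Gy + INDO tumors 31.0, 28.1, 32.2 and 32.3 CPM, with no overlap.

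The late days gave no call for any of the 9 genes. In the 6 comparisons of days 15 and 23, 0 of 54 tests passed an adjusted p under 0.05 with edgeR and 0 with DESeq2, and 9 had an unadjusted p under 0.05. Few other genes passed either: the share of all genes called reached 0.778% higher and 0.552% lower, for 6 Gy + INDO on day 15, and was 0.00473% lower for 6 Gy + INDO on day 23, the other shares being 0, and control had 3 tumors on each late day. In the 9 comparisons of days 1, 3 and 7, 30 of 81 tests passed, 29 of them lower. Among all genes tested with 6 Gy, INDO and both, 6.15%, 5.81% and 10.7% rose on day 1, 3.62%, 2.38% and 10.1% rose on day 3, 5.69%, 12.7% and 24.8% rose on day 7, and the shares that fell were 9.43%, 8.89% and 13.3%, 4.10%, 3.95% and 9.43%, and 10.3%, 11.7% and 21.2%. INDO on day 3 was the early comparison with no call, where 3.95% of genes fell and 2.38% rose, 1 of the 9 genes (Entpd1) had an unadjusted p under 0.05, and DESeq2 called 0.

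Other genes of the pathway were read from lists, each by its counts in the averages over days. Over all genes tested, 9.19% rose and 10.6% fell with 6 Gy, 16.8% rose and 17.4% fell with INDO, and 29.6% rose and 23.2% fell with 6 Gy + INDO, and several of the counts below lie near these shares. Of 12 nucleotide-converting enzymes, most of them outside the cell, 1 rose and 4 fell with 6 Gy, 2 rose and 4 fell with INDO, and 2 rose and 5 fell with 6 Gy + INDO. Enpp3, which hydrolyzes nucleotides at the cell surface, fell by 1.12 (log2, SE 0.17) with 6 Gy, 0.89 (SE 0.17) with INDO and 0.96 (SE 0.17) with both. Enpp2, the secreted enzyme autotaxin, fell by 1.77 (SE 0.31), 1.13 (SE 0.31) and 1.82 (SE 0.31). Art2b, a surface ADP-ribosyltransferase of T cells, rose by 1.12 (SE 0.29) with INDO. That value includes INDO tumor 3 of day 3, with its high T cell markers, and was not refitted without it.

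Nucleoside transporters carry adenosine into cells. Of 7 in the list, 6 were tested and 2 fell with each treatment, and Slc28a2, a concentrative transporter, fell by 0.86 (SE 0.22) with 6 Gy, 0.91 (SE 0.22) with INDO and 1.34 (SE 0.22) with both. Of 12 genes of intracellular purine clearance, 1 rose and 2 fell with 6 Gy, 6 fell with INDO and 6 fell with 6 Gy + INDO. Pnp, which splits inosine downstream of Ada, fell by 0.25 (SE 0.09), 0.40 (SE 0.09) and 0.68 (SE 0.09). Hprt, which salvages hypoxanthine, fell by 0.43 (SE 0.10) with INDO and 0.58 (SE 0.10) with both.

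Among 15 receptors for ATP and ADP, 6, 3 and 5 fell with 6 Gy, INDO and 6 Gy + INDO, and 0, 1 and 1 rose. P2rx1, an ATP-gated channel, fell by 0.90 (SE 0.17), 1.08 (SE 0.17) and 1.29 (SE 0.18). Of 5 channels that release ATP, Panx1 fell with each treatment, by 0.49 (SE 0.08), 0.33 (SE 0.08) and 0.49 (SE 0.08). Downstream of the receptors, 6, 10 and 11 of 15 genes of G protein coupling and cyclic AMP turnover fell and 0, 1 and 1 rose, among them the phosphodiesterase Pde3b, by 0.65 (SE 0.10), 0.78 (SE 0.10) and 1.01 (SE 0.10), and the adenylyl cyclase Adcy4 with 6 Gy, by 0.95 (SE 0.11). The medians of these lists lay between -0.36 and 0.04 in the 3 comparisons with control, beside 0.03 to 0.19 over all genes tested. The values named here are larger in size than the shifts that housekeeping scaling gave to the median of all genes, and Hprt is itself 1 of the housekeeping genes.

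Genes that run parallel to each member over the 94 tumors, by Pearson correlation of log2 CPM among 13379 genes with a mean log2 CPM of at least 1, are given as a description. The points share library depth and group, and no p is attached. Entpd1 ran closest to Tspan13, Fgr and Prr5l (r = 0.86, 0.86 and 0.85), and Fgr is a kinase of myeloid cells. Nt5e ran closest to Nptn, Itgav and Pls3 (r = 0.83, 0.81 and 0.80). Adora2b ran closest to Npl, Fcrlb and the macrophage scavenger receptor Cd163 (r = 0.85, 0.84 and 0.84). Adk ran closest to the mitochondrial genes Pmpcb and Mrps17 and to C1d (r = 0.88 for each).

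Some of these orders changed when the mean of each treatment and day was taken off. Adora2a then ran closest to Fyn, Kbtbd11 and Tcf7 (r = 0.74, 0.73 and 0.70), and Fyn and Tcf7 are a kinase and a transcription factor of T cells. Dpp4 ran closest to Rcsd1, Satb1 and Grap2 (r = 0.76, 0.75 and 0.75), and Entpd1 to Themis2, Clec7a and Rab20 (r = 0.81, 0.79 and 0.78). INDO tumor 3 of day 3, which was high in Adora2a (3.67 CPM) and Dpp4 (21.4 CPM), was kept. The orders were not computed without it. Nptn stayed among the 3 closest to Nt5e (r = 0.81). Between the members themselves the highest value over the 94 tumors was 0.63, for Entpd1 and Dpp4.

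Summed levels of gene lists were set beside the members in the same way, with pairs named after their values were seen and no p attached. Nt5e ran with 12 hypoxia genes (r = 0.736 and rho = 0.758 over 94 tumors, r = 0.747 without the 2 farthest tumors, and r = 0.675 with group means taken off). The hypoxia list itself had 2 of 12 genes higher with 6 Gy, where 9.19% of all genes were. With INDO 2 were higher and 1 lower (all genes 16.8% and 17.4%). With 6 Gy + INDO 2 were higher and 8 lower (all genes 29.6% and 23.2%). Set against 6 Gy, 10 were lower with 6 Gy + INDO (all genes 19.8%). The part of the hypoxia list in the Nt5e results was not tested. Over the 94 tumors Adora2a had r = 0.711 (rho = 0.676) with endothelium markers and r = 0.662 (rho = 0.59) with the T cell sum. With group means taken off, Adora2a had r = 0.638 with the T cell sum, and r = 0.494 without INDO tumor 3 of day 3. With Thy1 left out of the sum, and group means again taken off, these were 0.61 and 0.435. With group means off, Entpd1 had r = 0.536 with neutrophil markers and 0.531 with dendritic cell markers, and Dpp4 had r = 0.567 with dendritic cell markers. In the same order, the values over the 94 tumors were 0.672, 0.64 and 0.529. The Entpd1 and Dpp4 values include INDO tumor 3 of day 3.

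**Figure D5:**
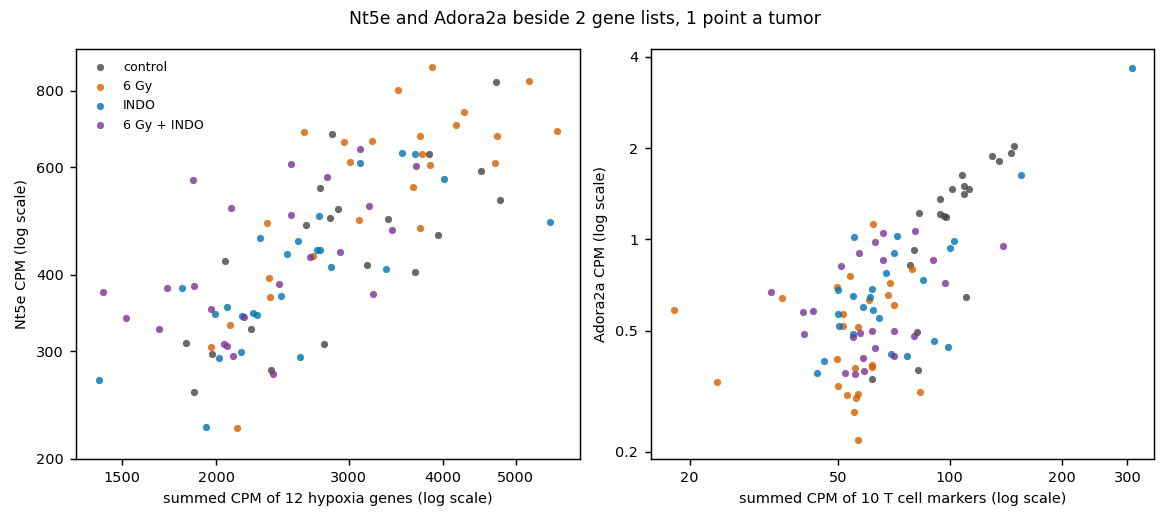
Nt5e against the summed CPM of 12 hypoxia genes and Adora2a against the summed CPM of 10 T cell markers, both axes on log scales, 1 point a tumor colored by treatment. Tumors with a high hypoxia sum tend to have high Nt5e (r = 0.736 over 94 tumors), and INDO tumor 3 of day 3 sits alone at the top right of the Adora2a panel (3.67 CPM beside 308 CPM on T cell markers).

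Markers of other cells in the tumor were counted the same way, beside 10.6%, 17.4% and 23.2% of all genes lower and 9.19%, 16.8% and 29.6% higher with 6 Gy, INDO and both. Averaged over days, 9 of 12 macrophage and monocyte markers and 7 of 8 dendritic cell markers fell with 6 Gy, 6 and 2 of them with INDO and 7 of each with both treatments, and 1 dendritic cell marker rose with INDO. All 8 fibroblast markers fell with each treatment, as did all 6 adipocyte markers. None of 7 tumor epithelium markers was called with 6 Gy, and 3 fell with INDO and with 6 Gy + INDO. Summed macrophage and monocyte markers ran from 645 to 2524 CPM in control tumors, 340.4 to 1055 CPM with 6 Gy, 593 to 2133 CPM with INDO and 599 to 1270.3 CPM with 6 Gy + INDO. With 6 Gy, INDO and 6 Gy + INDO in that order, 0, 5 and 5 of 8 neutrophil markers fell, as did 4, 1 and 4 of 7 natural killer cell markers, 2, 0 and 2 of 5 B cell markers, 3, 2 and 6 of 6 mast cell markers and 4, 4 and 4 of 5 blood markers, and 1 B cell marker rose with INDO. INDO tumor 3 of day 3, with its high lymphocyte markers, was kept in the INDO counts. None of 6 skeletal muscle or 6 skin markers was called. The part of these cells in the differences of Entpd1, Adora2b, Adora3, Ada and Dpp4 was not tested.

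Whether the 2 treatments act apart was asked with the interaction on the log2 scale. Entpd1 (0.43, SE 0.14, adjusted p = 0.0386) and Adora2a, given above, had positive interactions, and none was negative, where 1.92% of all genes were. The 6 Gy + INDO value of Entpd1, -0.85, is thus less than the sum of the 6 Gy and INDO values, -0.65 and -0.63. The Entpd1 call was lost without day 1 (0.32, adjusted p = 0.302), without day 7 (0.38, adjusted p = 0.208) and without the tumors rich in receptor reads (0.39, adjusted p = 0.176). It was also lost with no filter, without day 23 and without the tumors numbered 2, 3 or 4 (adjusted p up to 0.346). All 8 fibroblast markers and 6 of 8 endothelium markers had positive interactions as well, where 5.65% of all genes did. Dpp4 had 0.45 (SE 0.24, adjusted p = 0.265), and 0.68 (adjusted p = 0.0152) without INDO tumor 3 of day 3.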

How the data were processed

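Total RNA of 94 tumors was sequenced by the authors, and per the labels reads were trimmed with cutadapt, aligned to mm10 with STAR and quantified in Partek 11.0.24.0328. The deposited values are expected counts for 49080 genes, of which 15.5% are not whole. Annotation and strand setting of the counting are not given in the sources used here, whereas the study's methods scaled to housekeeping genes and called genes at a P value and a fold change of 2, and that rule, with P unadjusted, was run as an alternative.

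Here the expected counts were rounded, filtered with filterByExpr and scaled by TMM, and edgeR 4.0.16 (R 4.3.3) quasi-likelihood tests were run, 1 fit for the 4 groups of each day (15 comparisons) and 1 fit of all 94 tumors for averages over days (6 contrasts), differences between days and treatment-by-day terms. P-values were adjusted over all genes tested by Benjamini-Hochberg at 0.05, and the SE was derived from the fold change and its F value. A fold change is log2. Where groups are said to overlap or lie apart, the share of all genes whose groups lie apart was not computed. CPM uses TMM-scaled library sizes, and level per kb divides it by the annotated exon length. Adora1 and Adora2a had the lowest median counts, 8.45 and 30.0.

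The members, gene lists and tests were chosen with earlier results of these data known. All 9 members are described; from each pathway list at most 3 called genes with the smallest p per comparison could be named, and for likeness the 3 genes with the highest r. The 15 lists set beside the members hold markers of T, natural killer, B, dendritic and mast cells, macrophages and monocytes, neutrophils, endothelium, fibroblasts, tumor epithelium, muscle, skin, adipocytes and blood, and hypoxia genes. Their sums were correlated as log2(CPM + 0.05). Alternatives were RLE factors, housekeeping scaling, no filter, 1 fit of all tumors, only the 2 groups compared, the replicate number as a block, DESeq2 1.42.0, receptor reads as a covariate or a reason for leaving tumors out (above 300 CPM), and each day or tumor left out. Leaving out INDO tumor 3 of day 3 from the averages, and Thy1 from the T cell sum, was chosen after the data were seen. Promoters come from RefSeq (GRCm38.p6), where 8 of the 9 genes matched.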

Additional observations from a re-analysis of the deposited data

Results flagged for a closer look

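In 19 of 162 groups of 4 or 5 tumors, 1 tumor lay far from the others by Dixon's criterion, where chance gives about 1 in 20 groups. For Entpd1 these were 6 Gy tumor 1 of day 3 (61.1 CPM), 6 Gy tumor 3 of day 15 (57.1 CPM) and 6 Gy + INDO tumor 1 of day 15 (49.5 CPM), each high. Nt5e was high in 6 Gy + INDO tumor 5 of day 1 (513.8 CPM). Adora1 was high in INDO tumor 3 of day 3 (0.911 CPM) and 6 Gy tumor 2 of day 23 (0.857 CPM). Adora2a was high in INDO tumor 3 of day 3 (3.67 CPM) and 6 Gy tumor 4 of day 23 (1.12 CPM), and low in control tumor 4 of day 7 (0.647 CPM), 6 Gy tumor 3 of day 15 (0.339 CPM) and 6 Gy + INDO tumor 4 of day 23 (0.363 CPM).

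Adora2b was high in control tumor 2 of day 3 (6.21 CPM), 6 Gy + INDO tumor 3 of day 3 (3.32 CPM) and INDO tumor 1 of day 15 (3.28 CPM). Adora3 was high in 6 Gy + INDO tumor 1 of day 7 (2.75 CPM). Adk was high in control tumor 4 of day 7 (55.7 CPM) and low in 6 Gy tumor 4 of day 23 (32.5 CPM). Dpp4 was high in 6 Gy tumor 1 of day 1 (2.43 CPM) and INDO tumor 3 of day 3 (21.4 CPM).

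The difference from control varied between days (edgeR, adjusted over all genes) for Adora2a with 6 Gy (adjusted p = 0.00085), INDO (adjusted p = 0.00688) and 6 Gy + INDO (adjusted p = 0.000502), for Dpp4 with INDO (adjusted p = 0.0163) and 6 Gy + INDO (adjusted p = 0.0281), and for Entpd1 (adjusted p = 0.0385) and Adora2b (adjusted p = 0.000274) with 6 Gy + INDO. The Dpp4 value for INDO was not called with housekeeping scaling or without the tumors numbered 3 or 5, and that for 6 Gy + INDO without the tumors rich in receptor reads (adjusted p = 0.0612) or those numbered 1, 2, 3 or 4. The Adora2a value for INDO was not called without the tumors numbered 1, 3 or 5 (adjusted p up to 0.0747), and that for 6 Gy + INDO without those numbered 1 (adjusted p = 0.0576). The Entpd1 value was not called under 4 of 6 alternatives, one of them without the tumors rich in receptor reads, and on leaving out 4 of the 5 replicate numbers. The effect of 6 Gy was called to differ with and without INDO for Entpd1 (0.43, log2) and Adora2a (0.78, log2), and the losses of both calls are given above.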

How the results depend on the processing

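Of 2337 single gene results under an alternative other than a tumor or replicate number left out, 2168 kept their direction and side of the threshold, 133 lost a call, 35 gained one and 1 reversed: Ada with 6 Gy + INDO against 6 Gy, at 0.0122 with housekeeping scaling. Of 1791 with a tumor or number left out, 1662 kept both, 116 lost a call, 13 gained one and 0 reversed. DESeq2 gave no adjusted p for 9.

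Counts of the 9 genes called moved by more than 1.5 times as follows, and the cause was not tested. At P under 0.05 and 2-fold, lower genes averaged over days were 1 with 6 Gy, 0 with INDO, 1 with 6 Gy + INDO, 0 against 6 Gy and 0 against INDO, higher genes 0 with 6 Gy and 1 for the interaction, and within days 0 higher with 6 Gy and 3 lower with INDO on day 1 and 1 higher with INDO on day 15. Over all genes that rule called 0.225% to 13.9% in 1 direction for averages and 0.599% to 18.5% within days. With DESeq2, 2 were higher with 6 Gy + INDO than with 6 Gy, and with 6 Gy on day 3 1 was higher and 0 lower. With RLE factors that first count was 2. With housekeeping scaling, 1 was lower with INDO, 2 higher against 6 Gy, 0 lower against INDO, 1 varied between days with INDO, and on day 3 0 were lower with 6 Gy and 0 with 6 Gy + INDO. With no filter, the interaction had 1 and 6 Gy on day 3 had 0. In 1 fit of all tumors, day 3 had 1 lower with INDO and 5 with 6 Gy + INDO. With only the 2 groups compared, day 1 had 0 higher with 6 Gy and 1 with 6 Gy + INDO.

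Once receptor reads entered as a covariate, 0 were higher against 6 Gy and 0 lower against INDO. Without the tumors rich in receptor reads these were 0 and 0, the interaction had 1, days within 6 Gy + INDO 3, its treatment-by-day term 2, and lower genes were 0 with 6 Gy on day 3, 0 with 6 Gy + INDO on day 3 and 2 on day 7. Without INDO tumor 3 of day 3, 2 were higher against 6 Gy and 3 differed between INDO days. Without day 1, 0 were higher with 6 Gy, 2 lower with INDO, 0 higher against 6 Gy, 1 lower against INDO and 0 had an interaction; without day 7, 1 was lower with INDO, 0 higher against 6 Gy, 1 lower against INDO and 0 had an interaction; without day 3, 0 were lower against INDO; without day 15, 4 were; without day 23, 0 had an interaction.

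Leaving out 1 tumor gave on day 1 0 to 2 higher and 3 to 5 lower with 6 Gy and 3 to 5 lower with INDO, and on day 3 0 to 1 lower with 6 Gy, 0 to 1 with INDO and 1 to 3 with 6 Gy + INDO. Leaving out 1 replicate number gave 0 to 1 higher with 6 Gy, 1 to 5 lower with INDO, 0 to 1 higher and 2 to 4 lower against 6 Gy, 0 to 1 lower against INDO, 0 to 1 with an interaction, 2 to 4, 1 to 4, 3 to 5 and 0 to 4 with days that differed within control, 6 Gy, INDO and 6 Gy + INDO, and 0 to 2 and 1 to 4 with treatment-by-day terms for INDO and 6 Gy + INDO.

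The labels do not say whether replicate numbers pair tumors. Of 132 same-numbered pairs 45 had a correlation of deviations above 0.1 (median 0.0224, range -0.4834 to 0.5945). Of the 94 tumors, 24 correlated best with their own number. No count expected without pairing was set beside these, so they do not settle whether tumors were paired. With the replicate block, Adora3 with 6 Gy on day 1 (-0.55, adjusted p = 0.0832), Adora2b with INDO on day 1 (-0.91, adjusted p = 0.0902), Adora2a with INDO on day 7 (-0.96, adjusted p = 0.061) and the control days of Ada lost their calls, and Adora2a with 6 Gy + INDO on day 3 gained one (-1.55, adjusted p = 0.0291); no count moved by more than 1.5 times. Adora1 and Adora2a had the lowest counts, and days 15 and 23 had 3 control tumors each.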
